A study of Mus musculus with 9 samples.

Results

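The transcripts of 10 fibril-forming and fibril-associated collagen genes were followed in the mouse cornea: Col1a1, Col1a2, Col3a1, Col5a1, Col5a2, Col5a3, Col11a1, Col12a1, Col14a1 and Col27a1. They were taken from 18193 genes named on the array, and 25 probe sets carried 1 of these 10 symbols alone. The probe set with the highest mean intensity stands for a gene, and the others serve as a check. The samples were central corneas of adult male mice, 4 months old, of 3 inbred strains with no treatment stated: the B6 strain is C57Bl/6J and carries no thickness label, the KS strain is C57BLKS/J and is labelled as thin in the cornea, and the SJL strain is SJL/J and is labelled as thick. A 2-mm punch of each eye was taken and the 2 punches of a mouse were pooled, so each of the 9 Affymetrix arrays stood for 1 mouse, with 3 mice a strain. Thickness and strain cannot be told apart in this design.

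The stroma of the cornea is built from thin, evenly spaced collagen fibrils made by keratocytes, and that regular spacing lets light through. Its fibrils are heterotypic: type I collagen, a trimer of alpha 1 and alpha 2 chains, is the bulk, and type V collagen, which starts fibril assembly and restrains fibril width, is built into the same fibrils. Type XI chains are close relatives of type V chains, type III is abundant in skin, vessels and healing wounds, types XII and XIV sit on fibril surfaces, and type XXVII is a fibrillar collagen best known from cartilage.

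The promoters of Col1a2 and Col5a1 are shown because the brightest type I and type V probe sets varied together from mouse to mouse. That of Col3a1 is shown because this gene had the widest strain difference of the collagens. Col3a1 also varied with the type I and V chains in part, at r = 0.62 to 0.84 within strains. RefSeq start-site windows of the assembly GRCm38.p6 were held for 6 of the 10 genes: Col1a2, Col3a1, Col5a1, Col5a3, Col11a1 and Col27a1. The 250 bases before the table's start site are given 5′ to 3′ on the plus strand, which is the strand of all 3 genes, and they are the reference allele, not the KS or SJL one. Capitals mark a GC box (GGGCGG, or CCGCCC on the other strand), a CCAAT box (CCAAT or ATTGG) or a TATA box (TATAAA or TTTATA). The windows lie at chr6:4505368-4505617 for Col1a2, chr2:27886175-27886380 for Col5a1 and chr1:45311288-45311537 for Col3a1. The start site used for Col5a1 lies inside the outer limits of the gene, so the last 44 of its 250 bases fall within those limits and are not shown.
Col1a2: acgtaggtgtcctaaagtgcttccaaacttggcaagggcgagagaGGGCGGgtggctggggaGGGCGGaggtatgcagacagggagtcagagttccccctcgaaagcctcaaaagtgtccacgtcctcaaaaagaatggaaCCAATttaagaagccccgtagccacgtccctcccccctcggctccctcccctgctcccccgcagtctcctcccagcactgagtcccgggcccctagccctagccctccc
Col5a1: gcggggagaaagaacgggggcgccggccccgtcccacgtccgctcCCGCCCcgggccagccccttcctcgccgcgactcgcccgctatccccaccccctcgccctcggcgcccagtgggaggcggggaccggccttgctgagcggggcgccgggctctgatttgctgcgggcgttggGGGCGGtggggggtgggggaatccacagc
Col3a1: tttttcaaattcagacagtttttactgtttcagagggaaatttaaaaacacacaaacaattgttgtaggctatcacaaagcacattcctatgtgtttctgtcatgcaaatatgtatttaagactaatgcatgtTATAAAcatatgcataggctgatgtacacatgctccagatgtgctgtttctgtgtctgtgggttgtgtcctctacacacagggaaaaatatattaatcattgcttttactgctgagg
Over their full 250 bases the Col1a2 and Col5a1 windows were rich in G and C (62.0% and 76.4%), and each held 2 GC boxes. Only 35.2% of the Col3a1 window was G or C, against a median of 52.4% over 32851 such windows, and it held a TATAAA 117 bases before the start and neither other motif. A GC box was present in 32.7% of all windows, a CCAAT box in 33.8% and a TATA box in 12.4%. No match overlaps another in the windows shown, and a match describes the sequence alone.

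Markers of the tissue were bright in each strain. Krt12, the keratin of corneal epithelium, lay between 26007 and 29278, Kera, the corneal proteoglycan keratocan, between 11129 and 13183, and Col8a2, of the endothelial basement membrane, between 3216 and 3740. Values are linear probe set intensities, and 54.6% of them lay below 16, near the lower end of the scale, where a value is a bound and not an amount. Probes differ in how strongly they bind, so an intensity is compared between strains and never between genes. In a punch of mixed tissue, fewer cells of a type and less RNA per cell cannot be told apart. KS replicate 3 carried retinal transcripts (Gnat1 at 2108, and at most 9.39 on the other arrays), and B6 replicate 3 had the highest 3′ to 5′ ratio of the Gapdh control (1.55 on the log2 scale, against 0.73 to 1.17), a measure of RNA quality.

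The type I, type V alpha 1 and alpha 2, and type XII chains were bright in all 3 strains, whereas the other 5 genes were dim. The strain differences that were called lay among the dim genes: Col3a1 was highest in KS and Col27a1 lowest in SJL, and Col11a1 rose above 16 on B6 arrays alone. Many of these dim values are bounds, Col11a1 and Col27a1 passed the low-signal filter only through the strains in which they were high, and the Col11a1 call was kept in 8 of 17 alternatives. For the main fibril chains Col1a1, Col1a2, Col5a1 and Col5a2, the brightest probe sets gave no call between any 2 strains, although for Col5a1 and Col5a2 another probe set did. A call means an adjusted p under 0.05 in limma, a linear model fitted to log2(intensity + 10) of 22519 probe sets. The low-signal filter kept 8 of the 10 genes, leaving out Col5a3 and Col14a1. In SJL against KS, 2 of the 8 genes were called, both lower, where 14.9% of all genes tested were called (8.08% lower and 6.8% higher). For KS against B6 the count was 1, higher, beside 6.27% of all genes called (3.4% higher and 2.87% lower). SJL against B6 gave 2, both lower, beside 16.1% called (7.68% lower and 8.39% higher). A difference among the 3 strains in either direction was called by the F-test of limma for 3 genes, Col3a1, Col11a1 and Col27a1, beside 19.4% of all genes. With so few genes, these counts are not read as more or fewer than the background. The median log2 difference over the 8 genes was -0.32 for SJL against KS, where the median over all genes tested was 0.02. It was 0.17 for KS against B6, beside 0.01, and -0.26 for SJL against B6, beside 0.02. SJL lay below KS in 7 of the 8 and below B6 in 8 of the 8, beside 47.0% and 46.3% of all genes tested. Col11a1 and Col27a1 passed the filter through the strains in which they were high, so nothing is supported by these counts and medians. Other tissue marker lists also separated SJL, in both directions. The summed intensity of 6 conjunctiva and limbus genes was 6695 to 8397 in SJL, 21602 to 24088 in KS and 24199 to 29682 in B6. Of its 5 genes tested, 3 were lower and 0 higher in SJL than in KS (3 and 1 at an unadjusted p under 0.05, limma), 4 were lower and 1 higher than in B6, and Muc5ac, a conjunctival mucin, was below 16 on all arrays. For 5 lens genes the sum was 53.5 to 120 in SJL, 40.1 to 42.9 in KS and 40.1 to 43.1 in B6. Of these lens genes 4 were below 16 on all arrays, and the 1 tested was called higher in SJL than in KS and B6. Of 4 leukocyte genes tested, limma called 2 higher and 0 lower in SJL, against KS and against B6 alike. The part of these lists in the collagen differences was not tested. Any 2 of these comparisons share the arrays of a strain, so they are not independent of each other.

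**Figure D1:**
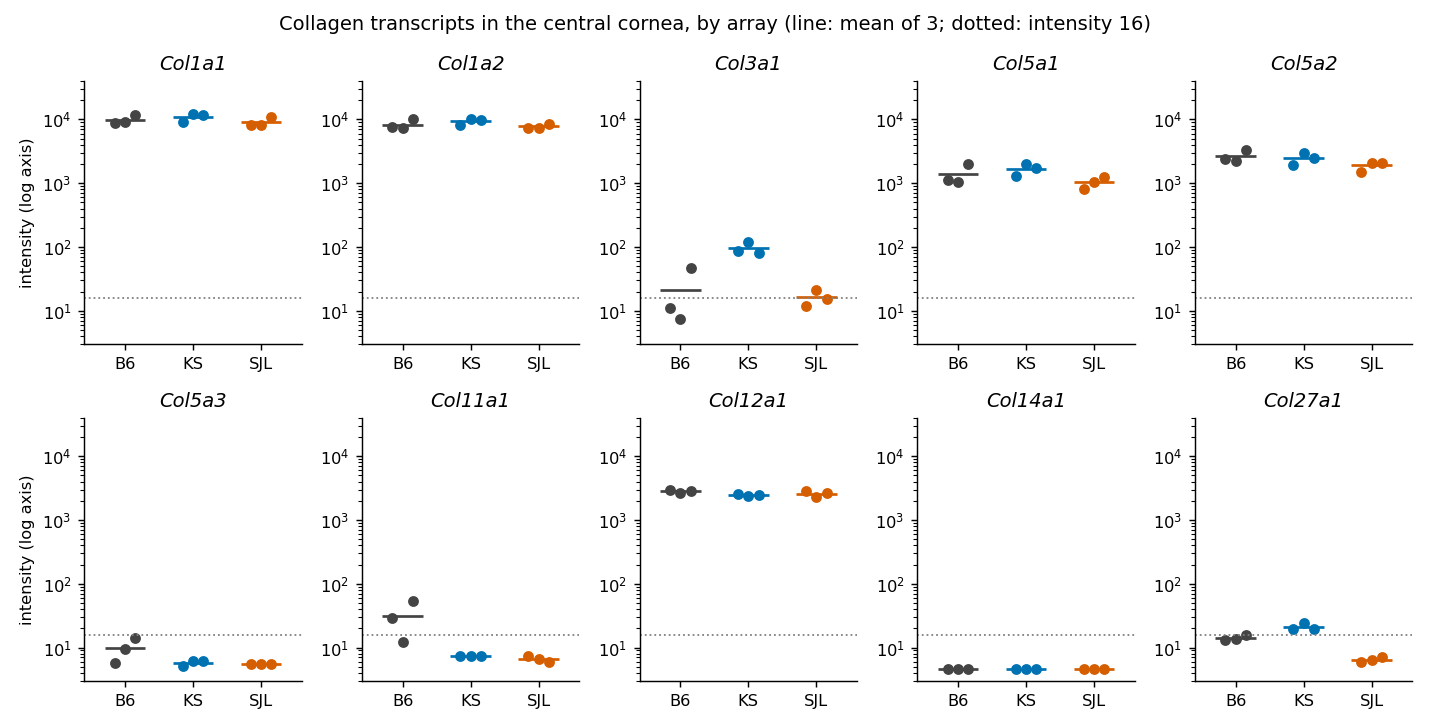
Intensity (log axis) of the brightest probe set of each collagen on the 9 arrays, by strain; points are mice, lines are means of 3 and the dotted line marks an intensity of 16. Col1a1, Col1a2, Col5a1, Col5a2 and Col12a1 lie at 804 or higher on all arrays, and Col3a1 lies between 81.5 and 119 in KS and at 46.3 or lower elsewhere.

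Type I collagen is the main protein of the stromal fibril. Col1a1 (chr11:94936224-94953042, GRCm38.p6), its alpha 1 chain, had intensities of 8706, 8976 and 11945 in the 3 B6 mice, 9201, 12174 and 11562 in KS and 8170, 8111 and 10794 in SJL. The strains overlapped. B6 averaged 9876 ± 1797, KS 10979 ± 1570 and SJL 9025 ± 1532 (SD, n = 3), and SJL differed from KS by -0.29 on the log2 scale (SE 0.175, adjusted p = 0.331). Col1a2 (chr6:4505618-4541543), the alpha 2 chain, had 7548, 7332 and 9984 in B6, 8208, 10041 and 9644 in KS and 7360, 7411 and 8507 in SJL. These ranges overlapped too, and SJL differed from KS by -0.26 (SE 0.142, adjusted p = 0.275). Against B6, KS differed by 0.16 for Col1a1 (adjusted p = 0.679) and 0.17 for Col1a2 (0.554), and SJL by -0.13 (0.686) and -0.08 (0.753). The intervals still allow changes of some size: for Col1a1 in SJL against KS the 95% interval ran from -0.69 to 0.12. A second bright probe set of each gene ran close to the first over the 9 arrays, with r = 0.90 for Col1a1 and r = 0.92 for Col1a2 (log2 values, strain differences included), and gave -0.38 (adjusted p = 0.0789) and -0.51 (0.0891) in SJL against KS. The remaining probe set of Col1a2 reached at most 13.7.

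Type V collagen was carried by 2 bright chains. Col5a1 (chr2:27886381-28039510), the alpha 1 chain present in nearly every type V molecule, had 1139, 1059 and 1994 in B6, 1296, 1976 and 1747 in KS and 804, 1063 and 1261 in SJL. Every KS mouse lay above every SJL mouse. The B6 range contained that of KS and overlapped that of SJL, whose lowest mouse lay below all B6 mice. The means were 1397 ± 518, 1673 ± 346 and 1043 ± 229 (SD, n = 3). SJL differed from KS by -0.68 (SE 0.275, 95% interval -1.31 to -0.05), which was not called after adjustment over all probe sets (adjusted p = 0.144). Its other 2 probe sets, dimmer but above 50 on all arrays, also put all KS mice above all SJL mice: that with a mean of 237 gave -1.44 (SE 0.409, adjusted p = 0.0477) and that with a mean of 684 gave -1.03 (SE 0.297, adjusted p = 0.0501). Over the 9 arrays they correlated with the brightest at r = 0.60 and 0.80, and as deviations from the strain means at 0.17 and 0.62.

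Col5a2 (chr1:45374331-45503282), the alpha 2 chain of type V collagen, had 2425, 2210 and 3310 in B6, 1906, 2945 and 2497 in KS and 1527, 2113 and 2078 in SJL by its brightest probe set. The ranges of KS and SJL overlapped, and the differences were -0.35 in SJL against KS (SE 0.215, adjusted p = 0.326) and -0.47 in SJL against B6 (0.192). Its second probe set gave another picture, with 1101, 1098 and 1456 in B6, 1247, 1346 and 1154 in KS and 622, 602 and 767 in SJL. On that probe set all SJL mice lay below all others: SJL differed from KS by -0.91 (SE 0.144, adjusted p = 0.0035) and from B6 by -0.86 (adjusted p = 0.0043), and KS from B6 by 0.05 (0.904). The log2 ratio of the second to the brightest was -1.79 to -1.28 in SJL, -1.18 to -1.0 in B6 and -1.12 to -0.61 in KS, so within each array SJL had less signal on the second than on the brightest, relative to the other strains. Whether the strains differ in the sequence under these probes or in the transcripts they bind was not tested. The alternative chain Col5a3 (chr9:20770050-20815117) was at the lower end of the scale, with 5.68, 9.48 and 14.0 in B6 and 5.15 to 6.23 in KS and SJL, and was not tested.

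**Figure D2:**
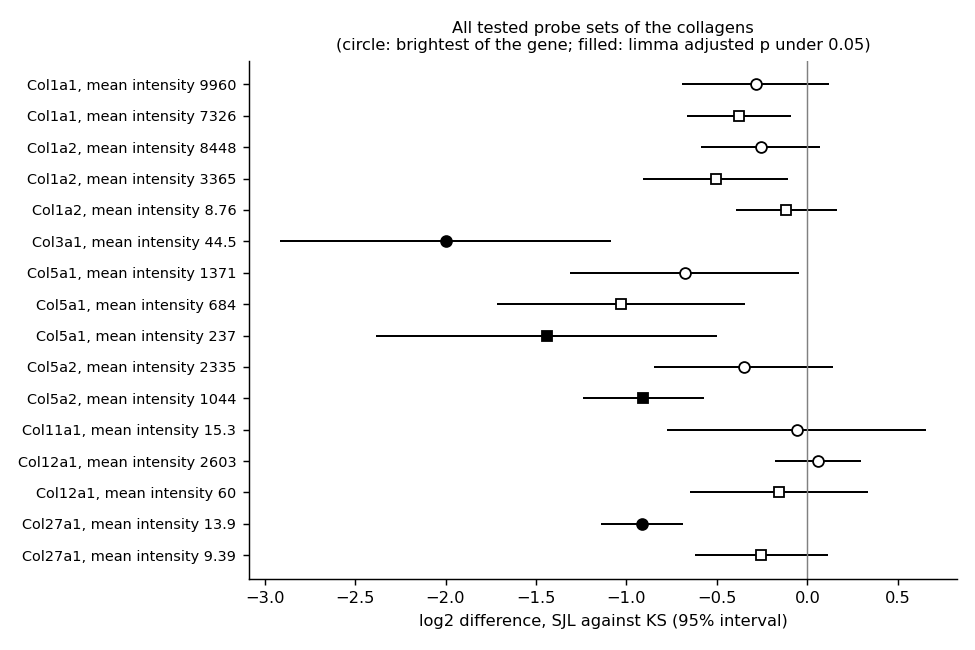
Log2 difference of SJL against KS with its 95% interval for the 16 collagen probe sets tested, labelled by gene and mean intensity; circles are the brightest of a gene, squares the others, and filled symbols were called by limma. The difference is below 0 for 15 of the 16, dim probe sets included, and the 4 called belong to Col3a1, Col27a1, Col5a1 and Col5a2.

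Across all 16 probe sets of the collagens that were tested, SJL lay below KS in 15, while 48.9% of all probe sets tested did. Of the 16, 4 were called in SJL against KS, where 15.5% of all probe sets were called. Probe sets of 1 gene share its transcripts, so they are not separate observations. The brightest probe sets of Col11a1 and Col27a1 passed the filter only through the strains in which they were high. A probe set of Col1a2 (at most 13.7) and another of Col27a1 (at most 15.97) lay below 16 on all arrays. Nothing is therefore supported by these counts.

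Col3a1 differed most among the strains. It encodes the single chain of type III collagen and lies next to Col5a2 (chr1:45311538-45349706), with 24624 bases between the 2 genes. Intensities were 10.98, 7.45 and 46.3 in B6, 85.4, 119 and 81.5 in KS and 12.0, 21.4 and 15.5 in SJL. All KS mice lay above all others, and B6 and SJL overlapped. KS had 95.5 ± 20.8, against 21.6 ± 21.5 in B6 and 16.3 ± 4.76 in SJL (SD, n = 3). SJL was lower than KS by -2.0 on the log2 scale (SE 0.397, 95% interval -2.91 to -1.09, adjusted p = 0.0104), and KS was higher than B6 by 1.93 (SE 0.397, 95% interval 1.02 to 2.83, adjusted p = 0.0267). As 2 of 3 B6 and 2 of 3 SJL values lay below 16, these sizes hold only on the scale used: with 1 in place of 10 added to the intensity they were -2.49 and 2.5, and with 50 added they were -1.13 and 1.05, each called. SJL and B6 differed by -0.07 (95% interval -0.98 to 0.83, adjusted p = 0.931), and without B6 replicate 3, its highest array, by 0.44 (0.214). The call against B6 was lost without B6 replicate 1 (0.0937), B6 replicate 2 (0.0698), KS replicate 1 (0.0657), KS replicate 2 (0.114), KS replicate 3 (0.0703) or SJL replicate 3 (0.0503), and with the replicate number as a block (0.0557), and the call of SJL against KS held without any 1 array (0.0004 to 0.0454). With no filter on dim probe sets neither was called (0.0553 for SJL against KS and 0.121 for KS against B6). The neighbouring Col5a2 differed between KS and B6 by -0.11 (adjusted p = 0.827). A second probe set of Col3a1 stayed at 4.83 or lower on all arrays, so it cannot serve as a check.

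Other matrix and fibroblast markers moved with Col3a1 in part, and their part in its difference was not tested. Of 6 genes of activated fibroblasts, Thy1 and Tnc, a surface antigen and a wound matrix protein, were at 5.25 or lower on all arrays, and the summed intensity of the list was 404 to 462 in KS, 233 to 283 in B6 and 266 to 557 in SJL. Postn, periostin, was called higher in KS than in B6, at 232 ± 14.4 against 112 ± 21.9 (SD, n = 3), and SJL had 216 ± 59.0. Of the 4 genes of this list tested, limma called 1 higher and 0 lower in KS than in B6. It called 1 higher and 0 lower in SJL than in B6, and 0 in SJL against KS. Col3a1 instead was called lower in SJL than in KS and was not called between SJL and B6. For markers of sclera and cartilage-like matrix, 6 of 7 were below 16 on all arrays, Col2a1, Acan and Chad among them, and Tnmd, a tendon cell protein, ran from 110 to 340 in KS, 29.7 to 110 in B6 and 93.3 to 138 in SJL. Markers of muscle (4 of 4) and of blood and vessels (3 of 3) were below 16 on all arrays. The summed signal of 9 keratocyte genes was 70121 to 71457 in KS, 68879 to 70002 in B6 and 62797 to 65250 in SJL. Without KS replicate 3, the array with retinal transcripts, SJL differed from KS by -2.09 in Col3a1 (adjusted p = 0.0299).

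Col11a1 (chr3:114030479-114220756), the alpha 1 chain of type XI collagen, which can replace its type V relative in mixed fibrils, was seen above the lower end of the scale in B6 alone. It had 29.5, 12.2 and 53.4 in B6, 7.43, 7.43 and 7.26 in KS and 7.42, 6.71 and 5.92 in SJL. All B6 mice lay above all others, though they differed widely among themselves, with a mean of 31.7 ± 20.7 (SD, n = 3). SJL was lower than B6 by -1.19 (SE 0.311, 95% interval -1.90 to -0.48, adjusted p = 0.0334), and KS differed from B6 by -1.14 (SE 0.311, adjusted p = 0.0795), which was not called. It passed the filter only through its B6 values, so a difference was fixed in part by the filter, and the tests are given as a description. The SJL call was lost without B6 replicate 1 (0.0903), KS replicate 1 (0.0557), KS replicate 2 (0.0561), KS replicate 3 (0.0560), SJL replicate 1 (0.0645), SJL replicate 2 (0.0761) or SJL replicate 3 (0.0980), with no filter (0.124) and with 50 added to the intensity (0.0688). The second probe set was not tested and reached at most 8.25, on B6 replicate 3. On that array the brightest probe set was highest too, and so was the Gapdh 3′ to 5′ ratio (1.55 on the log2 scale). The part of RNA quality was not tested.

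Col12a1 (chr9:79598987-79721141), a long collagen that lies along fibrils and links them to their surroundings, varied least among mice of a strain of the 5 bright genes in B6 and KS, with a coefficient of variation of 6.79% and 3.16%, beside 10.6% in SJL. Its intensities were 2988, 2608 and 2804 in B6, 2519, 2366 and 2462 in KS and 2809, 2272 and 2600 in SJL. On this brightest probe set KS lay below B6 without overlap, and SJL overlapped both. The difference was 0.06 in SJL against KS (SE 0.101, 95% interval -0.17 to 0.29, adjusted p = 0.759) and -0.19 in KS against B6 (95% interval -0.42 to 0.04, adjusted p = 0.352). A second probe set, at a mean of 60.0, gave -0.16 in SJL against KS (adjusted p = 0.683) and 0.25 in KS against B6 (0.570). Both had the opposite sign to the brightest, and none was called. On the second probe set the KS values of 54.7 to 75.3 overlapped the B6 values of 49.0 to 56.1. The other fibril-surface collagen, Col14a1 (chr15:55307644-55520803), was at 4.62 to 4.69 on its brightest probe set, and all 3 of its probe sets stayed under 4.70 on all arrays.

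Col27a1 (chr4:63214009-63334991), the type XXVII chain, was dim. Its brightest probe set had 13.2, 13.4 and 15.8 in B6, 19.4, 24.6 and 19.3 in KS and 5.83, 6.44 and 7.05 in SJL. No 2 strains overlapped. SJL was lower than KS by -0.91 (SE 0.0961, 95% interval -1.13 to -0.69, adjusted p = 0.0004) and lower than B6 by -0.55 (95% interval -0.77 to -0.33, adjusted p = 0.0054). The call against B6 was lost with 50 added to the intensity (-0.18, adjusted p = 0.0649) and with the mean of all its probe sets (-0.36, 0.0695), and the difference was -1.02 with 1 added. KS differed from B6 by 0.36 (adjusted p = 0.0714). All B6 and SJL values lay below 16 and are bounds, and KS, at 19.3 to 24.6, lay little above. The order of the strains therefore rests on dim values. The filter mean was 8.01 in intensity, which SJL alone would not have passed, so a difference was fixed in part by the filter. The tests are given as a description. With no filter, the adjusted p in limma was 0.0012 for SJL against KS and 0.0094 for SJL against B6. A second, dimmer probe set, at most 15.97, gave -0.25 in SJL against KS (adjusted p = 0.337) and did not separate the strains: its KS values of 8.64, 15.97 and 8.57 overlapped the SJL values of 5.53, 8.28 and 8.64. The 2 probe sets correlated at r = 0.69 over the 9 arrays and at 0.98 as deviations from the strain means.

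**Figure D3:**
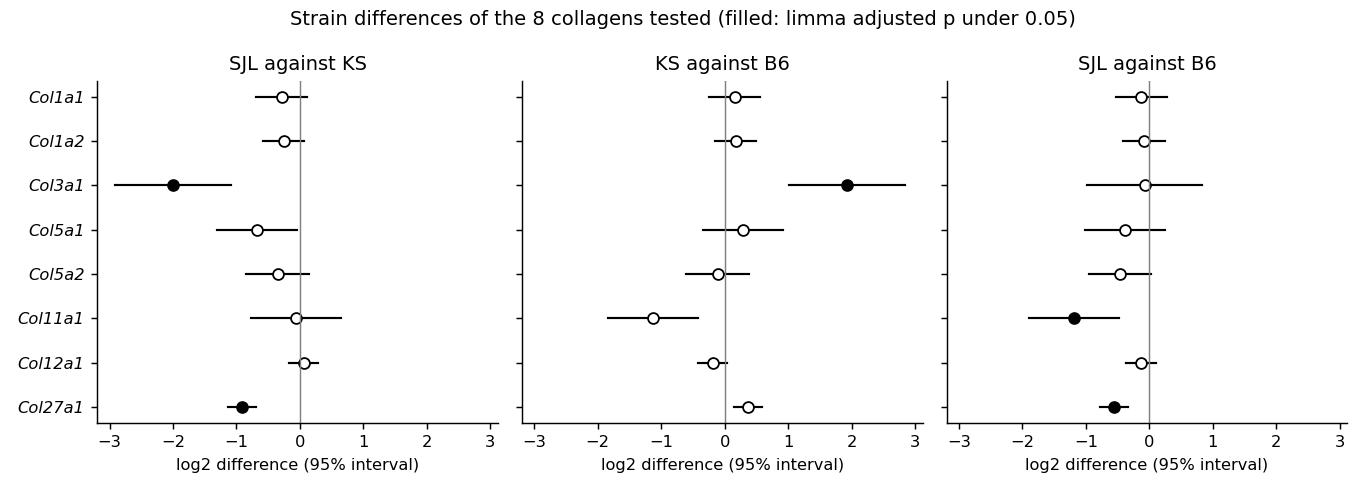
Log2 difference between strains with its 95% interval for the brightest probe set of the 8 collagens tested, in 3 comparisons; filled circles were called by limma and open circles were not. Col3a1 is at -2.0 for SJL against KS and 1.93 for KS against B6, and the intervals of Col1a1 and Col1a2 span 0 in all 3.

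By their brightest probe sets, the type I and type V transcripts varied together among mice of a strain. As deviations from the strain mean over the 9 arrays, Col1a1 and Col1a2 correlated at r = 0.96, Col5a1 and Col5a2 at 0.95, and Col1a2 and Col5a1 at 0.96, and the 6 pairs of the 4 genes ran from 0.80 to 0.96. Other probe sets bore this out less well for type V. As such deviations, those of Col5a1 followed its brightest at only 0.17 and 0.62, and that of Col5a2 at 0.61. The second bright probe sets of Col1a1 and Col1a2 followed at 0.94 and 0.92. The points share the array, its RNA and the way it was scaled, so this is a description. Col12a1 did not take part, at r = -0.40 to -0.02 with the same 4 genes. The dim genes did in part: Col3a1 correlated with the 4 at 0.62 to 0.84, Col27a1 at 0.74 to 0.81 and Col11a1 at 0.44 to 0.66. The shared variation was therefore not particular to the type I and V genes. The mean deviation of the 4 was -0.16, -0.21 and 0.37 in B6, -0.28, 0.21 and 0.07 in KS and -0.21, 0.003 and 0.21 in SJL. The highest, B6 replicate 3, was also the array with the highest 3′ to 5′ ratios, 1.55 for Gapdh and 1.56 for Actb, where the others had 0.73 to 1.17 and 0.86 to 1.1, and the part of RNA quality in this pattern was not tested.

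**Figure D4:**
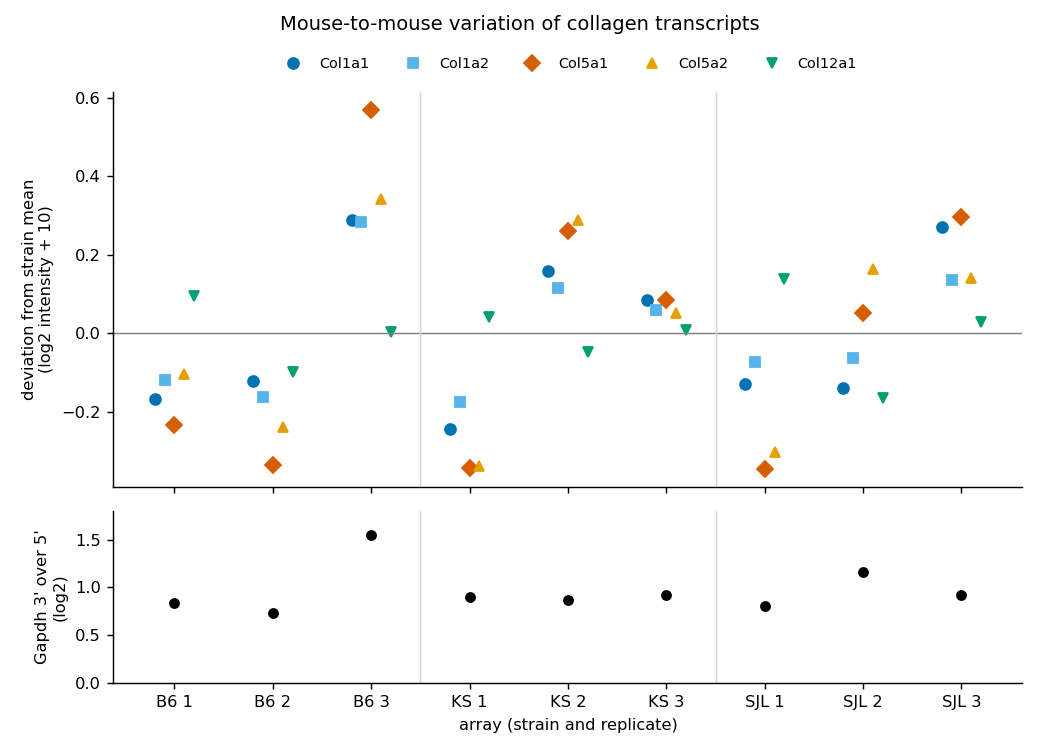
Upper panel, deviation of 5 collagens from their strain mean on each array (log2 of intensity + 10); lower panel, log2 ratio of the 3′ to the 5′ Gapdh control. By their brightest probe sets the type I and V genes are high together on B6 replicate 3 and low together on KS replicate 1. Col12a1 stays between -0.17 and 0.14.

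Many other genes followed the same within-strain pattern. Those most like Col1a1 were Ubtd2 (r = 0.98), Zc3h18 (0.97) and Ints9 (0.97), and of 10955 genes Col1a2 ranked 7th, Col5a1 39th and Col5a2 258th. For Col5a1, Col1a2 ranked 20th, Col5a2 28th and Col1a1 121st. Col5a1 was followed most closely by Col16a1 (0.99), which encodes another fibril-associated collagen, Adck2 (0.99) and Apeh (0.98), and Col12a1 by Cnksr3, Mier1 and Zc4h2 (each 0.98). Over all genes the median r was 0.10 with Col1a1 and 0.15 with Col5a1, and 0.529% and 1.52% of genes were above 0.9. Col16a1 itself stood at 258 ± 117 for B6, 543 ± 158 for KS and 379 ± 77.1 for SJL (SD, n = 3) and was not called between any strains.

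Ratios between chains on 1 array remove what raises both alike. The level of such a ratio depends on the probes, so only its change between strains is read. Col1a2 over Col1a1, the 2 chains of type I collagen, averaged -0.25 ± 0.0433 for B6, -0.23 ± 0.0611 for KS and -0.21 ± 0.118 for SJL (log2, SD, n = 3), with an exact permutation p of 0.793 over 1680 assignments of the arrays. The strains overlapped, and SJL minus KS was 0.03. Col5a2 over Col5a1, the type V chains, was 1.08, 1.05 and 0.73 in B6, 0.55, 0.57 and 0.51 in KS and 0.92, 0.98 and 0.72 in SJL. KS lay below all others (exact p = 0.0429, adjusted over the 7 ratios 0.1). That order depended on the probe sets, since KS lay below all others in 2 of the 6 pairs of a Col5a2 and a Col5a1 probe set. Col3a1 over Col1a1, type III to type I, was -6.71 ± 0.236 in KS, -8.48 ± 0.666 in B6 and -8.43 ± 0.369 in SJL, without overlap of KS and the rest (exact p = 0.0357, adjusted 0.1). Since Col3a1 lay below 16 on 4 of the 6 B6 and SJL arrays, those ratios are bounds and follow Col1a1 in part.

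Col5a1 over Col1a1, type V to type I, was -2.86 in B6, -2.72 in KS and -3.11 in SJL, and SJL lay below KS without overlap (exact p over 3 strains = 0.121, adjusted 0.17). Col11a1 over Col5a1 was -5.14, -6.58 and -5.96 (exact p = 0.0143, adjusted 0.1), but in KS and SJL it follows its denominator, as Col11a1 was at the lower end of the scale. The same holds in all strains for Col5a3 over Col5a1 (exact p = 0.0821, adjusted 0.144) and Col14a1 over Col12a1 (exact p = 0.157, adjusted 0.183). Of the 7 ratios, 3 had an unadjusted exact p under 0.05 and 0 passed after adjustment. The smallest p the test can give is 0.00357, and between 2 strains it is 0.1. Without B6 replicate 3, Col5a2 over Col5a1 and Col3a1 over Col1a1 passed (adjusted p = 0.0375 for both, exact permutation test).

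**Figure D5:**
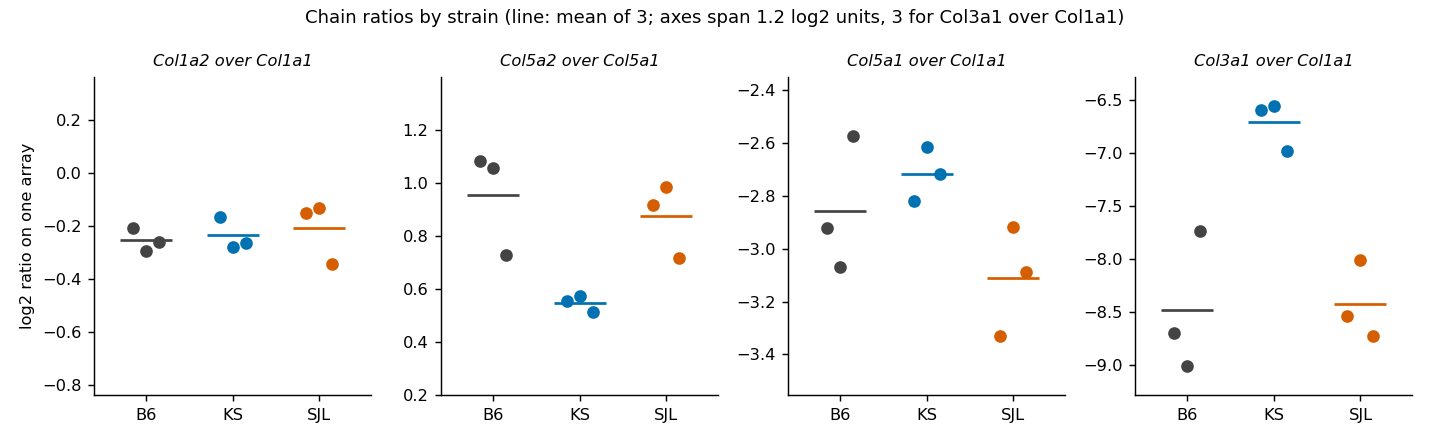
Log2 ratio of 2 collagen intensities on the same array, by strain; points are mice and lines are means of 3, and each axis spans 1.2 log2 units apart from the last, which spans 3. Col1a2 over Col1a1 overlaps among all strains, and Col5a2 over Col5a1 in KS (0.51 to 0.57) lies below B6 and SJL (0.72 to 1.08).

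Genes that make, trim, crosslink or bind these fibrils were listed as 6 groups of 57 symbols, some older names included. Of these symbols 48 were on the array and 35 were tested. Limma gave 7 lower and 0 higher in SJL against KS (8 and 2 at an unadjusted p under 0.05), where 8.08% of all genes were lower and 6.8% higher. KS against B6 gave 3 higher and 1 lower (12 and 3 unadjusted), beside 3.4% and 2.87% of all genes, and SJL against B6 gave 3 lower and 0 higher (3 and 4 unadjusted), beside 7.68% and 8.39%. These genes are few, and no more is read from their counts. In chain modification and folding, 15 genes were tested and 3 were lower in SJL than in KS. Among them Fkbp14, a proline isomerase of the endoplasmic reticulum, had 454 ± 19.4 in KS, 308 ± 44.7 in B6 and 293 ± 15.5 in SJL (adjusted p = 0.00767 against SJL and 0.0268 against B6), and P3h1, a prolyl 3-hydroxylase, had 65.9 ± 19.0 in KS and 32.6 ± 3.52 in SJL (-0.81, adjusted p = 0.0179). Colgalt1, which adds galactose to collagen, was highest in B6, at 742 ± 53.9 against 517 ± 41.5 in KS (adjusted p = 0.0430) and 534 ± 68.7 in SJL (0.0289).

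Of 8 small leucine-rich proteoglycans, which bind fibrils and regulate their width, 3 were lower in SJL than in KS and 0 higher. Omd, osteomodulin, was highest in KS as Col3a1 was, with means of 28.3 ± 13.7 for KS, 5.40 ± 1.09 for B6 and 5.29 ± 0.981 for SJL, so the 2 lower strains are at the lower end of the scale. Fmod, fibromodulin, had 2311, 2193 and 3927 in B6, 4451, 7399 and 5871 in KS and 261, 460 and 627 in SJL, with no overlap between any strains. In limma it differed by -3.74 in SJL against KS (adjusted p = 0.00018) and by -2.65 in SJL against B6 (adjusted p = 0.00125). It was not called in KS against B6. Among 3 collagen receptors tested, Ddr2, a receptor tyrosine kinase that binds fibrillar collagen, was lower in SJL, at 567 ± 109 against 787 ± 12.6 in KS (adjusted p = 0.0489) and 824 ± 78.6 in B6 (0.0302). Limma called 0 of 4 genes of procollagen processing, 0 of 2 of crosslinking and 0 of 3 other fibril-forming or fibril-associated collagens in any of the comparisons. At an unadjusted p under 0.05, SJL against KS gave 0, 0 and 1 of them in that order, KS against B6 gave 0, 1 and 2, and SJL against B6 gave 1, 1 and 1. Of the 10 other such collagens on the array, 7 were below 16 on all arrays, including Col2a1, Col9a1, Col11a2 and Col24a1.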

How the data were processed

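RNA of 9 samples was biotin-labelled and measured on Affymetrix arrays, per the labels' protocols. The authors deposited probe set intensities on a linear scale, already summarised over probes. For background correction and scaling, the method was not given in the sources used here. Each array had an upper quartile of 380 to 398, and 18.0% of probe sets had an identical value on 2 or more arrays. Arrays have no read depth, and 3 per strain limit the precision. Of 45101 probe sets, 64 were controls, 34945 had 1 symbol in the platform annotation, 932 several and 9160 none.

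Log2(intensity + 10) was fitted with limma 3.58.1 in R 4.3.3, with 1 mean per strain, 6 residual degrees of freedom and two-sided tests. A probe set was tested where its mean reached the median of all that were not controls (22519). Benjamini-Hochberg adjustment ran over those probe sets. This scale understates changes of dim genes. Chain ratios were tested by exact permutation of the F statistic. The fit and the permutation test were tested on simulated data. The members and gene lists were chosen with earlier results of these data known. All 10 genes were named in each comparison, and up to 2 called genes of each list with the largest difference in a comparison, plus those named as markers or for likeness; Postn, Tnmd, Col16a1 and the markers named at low levels were chosen after their values were seen. Gene positions are those of RefSeq, GRCm38.p6. The alternatives were other filters, pseudocounts, normalizations and array weights, a mean over all probe sets per gene, the replicate number as a block, and leaving out each array.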

Additional observations from a re-analysis of the deposited data

How the results depend on the processing

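Over the 8 genes and 3 comparisons, 380 differences kept direction and side of the threshold, 20 lost a call, 8 gained one and 15 changed sign. Col27a1 in SJL against KS was called under all 17 alternatives that tested it and Col3a1 under 16 of 17. Col27a1 passed the low-signal filter only through the strains in which it was high, so its count is a description. The number of called probe sets was 3489 in SJL against KS, 2101 with a filter at the 70th percentile and 9450 with array weights, whose estimation stopped before it converged; leaving out 1 array gave 2337 to 3643. In KS against B6 it was 1286, then 742, 2232, 838 with no filter and 745 to 1452. In SJL against B6 it was 3605, then 2156, 7364 and 2523 to 3674. Called collagens in SJL against KS numbered 1 with no filter, 0 at the 70th percentile, which leaves out Col3a1, Col11a1 and Col27a1, and 4 with the mean of all probe sets, where Col5a1 (-1.05, adjusted p = 0.0313) and Col5a2 (-0.63, 0.0271) were called. In KS against B6 they numbered 0 with no filter and at the 70th percentile, 2 with a pseudocount of 1, 3 with array weights and 0 to 1 leaving out an array. In SJL against B6 they numbered 1 with no filter, 0 at the 70th percentile, 0 with a pseudocount of 50 and 1 to 2 leaving out an array. By the F-test over strains, 3 were called, 1 with no filter, 0 at the 70th percentile and 1 to 3 leaving out an array. Chain ratios passing numbered 0 to 2 leaving out an array.

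The differences that changed sign had not been called, and the largest of them was -0.38, for Col5a1 in SJL against B6. With array weights, SJL against B6 became 0.19 for Col1a1, 0.11 for Col1a2, 0.17 for Col3a1 and 0.023 for Col5a1, and KS against B6 became 0.0017 for Col5a2. With the mean of all probe sets Col12a1 became -0.025 for SJL against KS and 0.015 for KS against B6, and with a pseudocount of 1 Col3a1 became 0.0034 in SJL against B6. Leaving out an array, Col12a1 ran from -0.011 to 0.14 for SJL against KS and Col5a2 from -0.26 to 0.059 for KS against B6. For SJL against B6, Col1a1 ran from -0.26 to 0.017, Col1a2 from -0.16 to 0.058 and Col3a1 from -0.40 to 0.44. Beyond what the text states, the cause was not tested.

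Deviations of arrays with the same replicate number correlated at -0.27 to 0.26, and others at -0.36 to 0.42. The sample titles do not say whether a number links mice of different strains, and these correlations cannot decide it. With the number as a replicate block, 0 collagens were called in KS against B6, as Col3a1 was not (adjusted p = 0.0557).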
